A study of Mus musculus with 36 samples.

Results

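Transcript levels of 10 scavenger and efferocytosis receptor genes (Marco, Msr1, Stab1, Cd163, Cd36, Scarb1, Scarb2, Mertk, Axl and Timd4) were followed in 4 mouse cell populations. The genes were matched by symbol, with no threshold on a measured value. They are 10 of the 56026 gene models in the table of bone marrow cells, 10 of 56575 in the B16-F10 table and 10 of 57252 in the MC38 table. Each symbol matched 1 gene model in each table. The series holds 36 RNA-seq libraries in 12 groups of 3.

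All groups came from mice labelled WT. The bone marrow groups were granulocyte-macrophage progenitors (GMP) given PBS, OMV-SIRP or OMV-SIRP-G and monocytes (titled Monos) given the same 3 treatments. The tumour groups were tumour-associated macrophages (TAM) of B16-F10 tumours, a melanoma line, and of MC38 tumours, a colon carcinoma line, each after PBS, OMV-SIRP or OMV-SIRP-G. OMV stands for outer membrane vesicle, the particle that Gram-negative bacteria shed; the sources used here do not spell out the rest of the treatment names and give no dose and no ages of the mice. The design text says that 3 samples of each group were pooled, which leaves unclear what a library holds, and no label ties a library to a mouse. The p-values therefore measure only the spread between these libraries, which may be technical.

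Scavenger receptors are surface proteins of macrophages and some endothelial cells that bind modified lipoproteins, bacterial surfaces and cell debris and carry them to the lysosome. Efferocytosis is the removal of dying cells: phosphatidylserine on the dying cell is bound directly, as by Timd4, or through bridging proteins such as Gas6 and Pros1 that activate the receptor kinases Mertk and Axl. Macrophages of many tissues, tumours included, carry several of these receptors at the same time.

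The genes lie on 8 chromosomes. On GRCm38, as the deposited tables give them, Marco (ENSMUSG00000026390) spans chr1:120474538-120505024 on the minus strand, Msr1 (ENSMUSG00000025044) chr8:39581685-39642673 on the minus strand, and Stab1 (ENSMUSG00000042286) chr14:31139013-31168641 on the minus strand. Cd163 (ENSMUSG00000008845) spans chr6:124304656-124330527 on the plus strand. The class B genes share chromosome 5, all on the minus strand: Cd36 (ENSMUSG00000002944) at chr5:17781690-17888801, Scarb2 (ENSMUSG00000029426) at chr5:92441314-92506833 and Scarb1 (ENSMUSG00000037936) at chr5:125277087-125341094. Mertk (ENSMUSG00000014361) spans chr2:128698956-128802894 on the plus strand, Axl (ENSMUSG00000002602) chr7:25757273-25788705 on the minus strand, and Timd4 (ENSMUSG00000055546) chr11:46810800-46844332 on the plus strand. All 10 are annotated as protein coding.

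RefSeq promoters (GRCm38.p6) were matched for 8 of the 10 genes: Marco, Stab1, Cd163, Cd36, Scarb2, Mertk, Axl and Timd4. Those of 4 genes are printed here as the 250 bases before the start, 5′ to 3′ on the gene's strand. Of the 8 matched genes, Marco, Stab1 and Mertk rose most in B16 TAM under OMV-SIRP-G against PBS. Axl was added because it moved differently from them. Msr1, which also rose there, had no matched promoter. Capitals mark every match, on either strand, to 8 short motifs: GGAAGT (a PU.1 and ETS core), CACGTG (an E-box), TGANTCA (an AP-1 site), TGCTGA (a MAF core), TTGCNNAA (a C/EBP palindrome), GGGCGG (a GC box), CCAAT and TATAAA. No match in these windows overlapped another.
Marco, chr1:120505025-120505274, minus strand: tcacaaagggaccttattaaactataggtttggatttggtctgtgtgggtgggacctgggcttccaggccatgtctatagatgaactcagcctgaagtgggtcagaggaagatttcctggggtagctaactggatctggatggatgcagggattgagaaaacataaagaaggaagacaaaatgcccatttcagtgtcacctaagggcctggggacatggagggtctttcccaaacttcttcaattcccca
Stab1, chr14:31168642-31168891, minus strand: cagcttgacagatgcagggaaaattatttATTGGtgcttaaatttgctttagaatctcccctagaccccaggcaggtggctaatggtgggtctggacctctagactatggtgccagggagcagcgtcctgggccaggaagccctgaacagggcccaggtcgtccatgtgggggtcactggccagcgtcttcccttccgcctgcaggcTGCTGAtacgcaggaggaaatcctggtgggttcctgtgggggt
Mertk, chr2:128698665-128698914, plus strand: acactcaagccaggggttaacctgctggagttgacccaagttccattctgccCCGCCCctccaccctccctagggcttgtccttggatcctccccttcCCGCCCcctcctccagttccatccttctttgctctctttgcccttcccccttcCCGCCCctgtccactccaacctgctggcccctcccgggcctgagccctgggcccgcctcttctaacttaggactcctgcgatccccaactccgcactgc
Axl, chr7:25788734-25788983, minus strand: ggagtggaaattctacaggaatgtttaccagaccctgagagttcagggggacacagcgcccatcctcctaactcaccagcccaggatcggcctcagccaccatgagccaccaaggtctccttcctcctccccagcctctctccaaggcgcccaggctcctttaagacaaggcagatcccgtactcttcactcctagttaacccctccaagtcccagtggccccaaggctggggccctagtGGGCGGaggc
The 4 windows differ in make-up. Mertk held 3 GC boxes and 7 CpG dinucleotides at 63.6% G+C, Axl 1 GC box and 5 CpG at 60.0%, Stab1 1 CCAAT box, 1 MAF core and 5 CpG at 57.2%, and Marco none of the 8 motifs and no CpG at 47.6%. The median of all 32851 promoters was 52.4% G+C and 6 CpG. Over all 32851 promoters, 32.7% held a GC box, 33.8% a CCAAT box, 16.1% the MAF core, 19.7% the PU.1 and ETS core, 12.4% TATAAA, 9.6% the C/EBP palindrome, 6.7% the AP-1 site and 6.0% the E-box. Among the 8 matched genes, 4 held a GC box, 4 a CCAAT box, 4 the MAF core and 2 the PU.1 and ETS core. No match says only that these letters are not in this window.

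The authors deposited FPKM, which is reads per kilobase of gene length scaled per library, so levels can be compared between genes of a table. The scaling was not by reads in genes alone, which would give a factor of 1. In MC38 libraries the factor was 0.831 to 0.866 under PBS, 1.00 to 1.18 under OMV-SIRP and 0.958 to 0.967 under OMV-SIRP-G. Libraries held 13036567 to 19822660 reads in genes. Over log2(FPKM + 1), libraries of a group had a Pearson's r of 0.980 to 0.989 (GMP), 0.925 to 0.988 (monocytes), 0.929 to 0.976 (B16) and 0.810 to 0.950 (MC38). Monocyte PBS 2, MC38 PBS 3 and MC38 OMV-SIRP 2 stood apart from the other libraries of their groups. MC38 OMV-SIRP 3 differed too, with a scaling factor of 1.00 beside 1.13 and 1.18 in OMV-SIRP 1 and 2. A gene was tested where at least 3 of a population's 9 libraries reached 1 FPKM, and it was called at a Benjamini-Hochberg adjusted p under 0.05 over all genes tested (limma on log2(FPKM + 1)). The 3 tables were scaled separately. Tests were made within a population only, also for GMP and monocytes, which share a table. The 3 comparisons of a population share libraries, PBS among them, and are not independent of each other.

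How many genes were called higher and how many lower depended on the scaling. Rescaling libraries to equal total reads turned 1308 higher and 924 lower genes into 818 and 1821 in GMP under OMV-SIRP against PBS, and 823 and 998 into 1337 and 606 under OMV-SIRP-G against OMV-SIRP. In B16 TAM under OMV-SIRP-G, 982 and 913 became 868 and 1007. In monocytes, 369 and 657 became 677 and 415 under OMV-SIRP against PBS, and 191 and 102 became 145 and 191 under OMV-SIRP-G against OMV-SIRP. In MC38 TAM, 1042 and 492 became 695 and 1637 under OMV-SIRP, 1843 and 966 became 1546 and 1429 under OMV-SIRP-G, and 21 and 33 became 29 and 21 between the treatments. With quantile normalisation the splits were 1053 and 1118 for GMP under OMV-SIRP, 903 and 813 for GMP between the treatments, 251 and 204 for monocytes between the treatments, and, in MC38 TAM, 873 and 679, 1592 and 1453, and 30 and 30. The median log2 change of all genes moved by over 0.1 under total-read scaling in monocytes under OMV-SIRP (from -0.03 to 0.11), in MC38 TAM under OMV-SIRP (from 0.03 to -0.26), in MC38 TAM under OMV-SIRP-G (from 0.07 to -0.08) and between the MC38 treatments (from 0.05 to 0.21). It also moved from 0.07 to -0.10 under quantile normalisation and to 0.18 with voom under OMV-SIRP-G in MC38 TAM. Among the receptor genes, scaling changed the call of Axl and of no other gene that had been called.

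Libraries of GMP, monocytes and B16 TAM carried markers of their labelled cells. MC38 TAM under PBS carried macrophage markers at a low level and are named here by their label. GMP libraries under PBS had a summed level of 5198 to 6509 FPKM over 7 progenitor markers, with Kit at 22.4 to 24.7 FPKM, and neutrophil markers were higher still, at 21730 to 31601 FPKM, led by S100a9. Monocytes under PBS had Ly6c2 at a mean of 544 FPKM and Ccr2 at 193 to 264 FPKM. Summed over 8 macrophage markers (Adgre1, Csf1r, Cd68, Fcgr1, Cd14, Itgam, Lyz2 and C1qa), B16 TAM under PBS stood at 2965 to 3226 FPKM. MC38 TAM under PBS stood at 243 to 477 FPKM, with Adgre1, the F4/80 antigen, at a mean of 4.34 FPKM and Csf1r at 6.71 FPKM. None of the 8 markers was at 0 in all libraries of a tumour group.

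The populations carried different receptors at rest. Under PBS, GMP and monocytes were led by Scarb1, the high-density lipoprotein receptor, at a mean of 22.1 and 47.6 FPKM. In GMP the order went on with Scarb2, a lysosomal membrane protein that carries glucocerebrosidase, at 15.2, Axl at 5.25 and Msr1 at 2.41 FPKM. Cd163 at 1.15, Cd36 at 1.01 and Stab1 at 0.816 FPKM overlapped their neighbours in that order, and Marco, Mertk and Timd4 were at most 0.235 FPKM in every library. In monocytes Scarb1 was followed by Msr1 at 27.0 FPKM, which overlapped Scarb2 at 26.1, while Axl at 9.06 overlapped Cd36 at 6.47 FPKM. Stab1 at 2.54 and Cd163 at 0.790 FPKM followed, and Marco, Mertk and Timd4 were at most 0.178 FPKM.

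The TAM under PBS had other leaders. B16 TAM were led by Stab1 at 69.1 FPKM, then Cd36 at 39.2 and Axl at 37.5, which overlapped, Scarb1 at 15 and Scarb2 at 13.9, which overlapped, Msr1 at 9.20 and Mertk at 6.45 FPKM. Timd4, Cd163 and Marco, at 1.10, 0.948 and 0.911 FPKM, overlapped each other. MC38 TAM were led by Axl at 92.1 FPKM, followed by Scarb2 at 12.4 and Msr1 at 7.27. Scarb1 at 3.29, Stab1 at 2.70 and Cd36 at 2.53 FPKM overlapped, Timd4 and Marco had reads in 1 library only, and Cd163 and Mertk had no read in any of the 3 libraries.

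**Figure D1:**
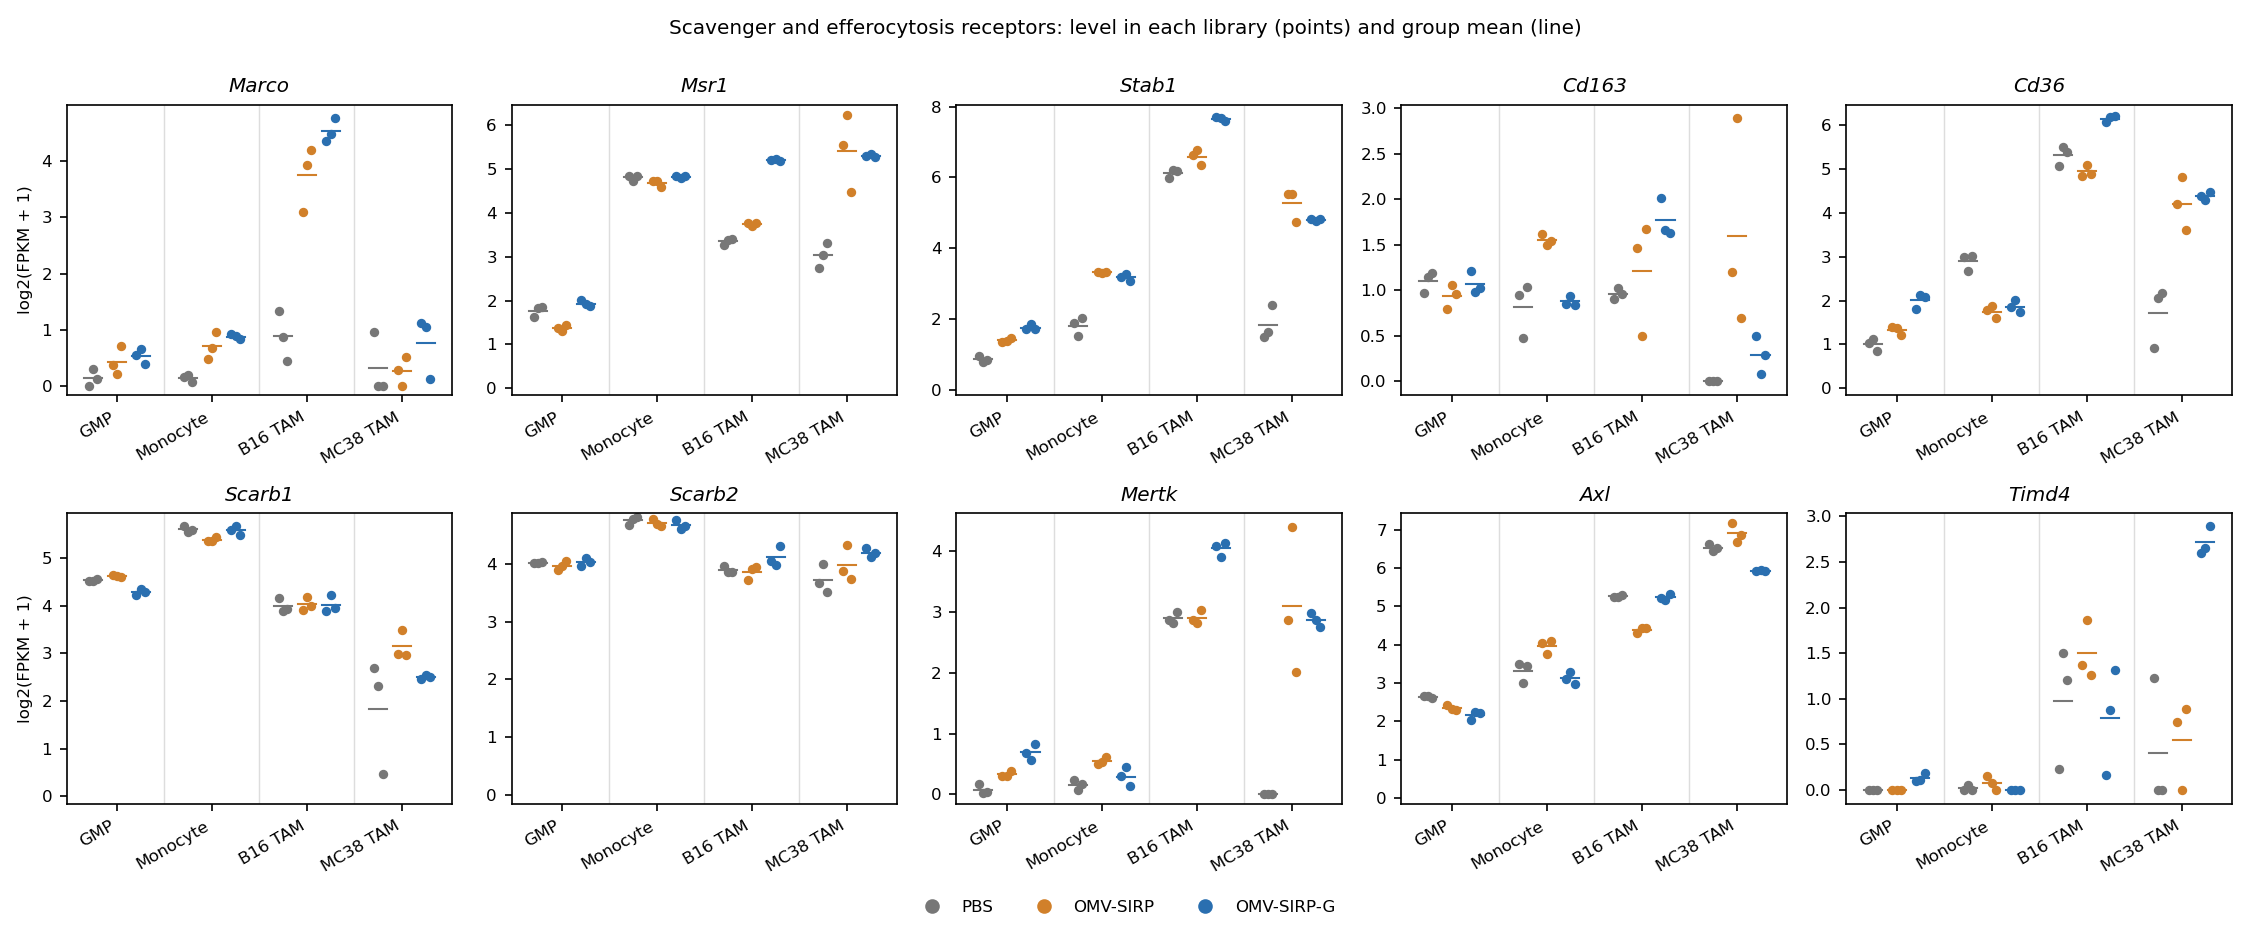
Level of each receptor gene in each of the 36 libraries, on the log2(FPKM + 1) axis of its own panel, by population (horizontal axis) and treatment (colour). Points are libraries and short lines are group means; the tables were scaled separately, so heights are comparable within a population and gene panel. Marco rises in B16 TAM, from at most 1.53 FPKM under PBS to 19.3 to 26.0 FPKM under OMV-SIRP-G, while Scarb2 stays between 10.5 and 27.2 FPKM in all libraries.

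In GMP, 7 genes were tested; Marco, Mertk and Timd4 did not reach the level required. OMV-SIRP against PBS called 1 of the 7 higher and 2 lower, against 10.6% and 7.52% of all genes tested. OMV-SIRP-G against PBS called 2 higher and 2 lower, against 6.76% and 5.22%. OMV-SIRP-G against OMV-SIRP called 3 higher and 1 lower, against 6.70% and 8.12%. The median change of the 7 was -0.05, 0.02 and 0.13 on the log2 scale in these comparisons, and that of all genes 0.02, 0.00 and -0.01. Stab1 reached 1 FPKM in 0 of 3 PBS libraries and in all 6 treated ones, so it passed the filter through the groups where it was high and had to differ; its higher calls are 1 in each count. Single members moved both ways.

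In monocytes, the same 7 genes were tested. Under OMV-SIRP 3 were called higher and 1 lower, against 3.07% and 5.46% of all genes. Under OMV-SIRP-G 1 was called higher and 1 lower, against 1.53% and 2.14%. Between the treatments 1 was lower under OMV-SIRP-G, against 0.848%, and 0 were higher, against 1.59%; limma gave 0 higher at an unadjusted p under 0.05 too, and voom also called 0. The 4 calls under OMV-SIRP became 2 without PBS 1 or without any OMV-SIRP library, and the last to 0 without any library of either treated group. Medians were -0.04, -0.02 and -0.04, beside -0.03, -0.01 and 0.01 for all genes. Cd163 reached 1 FPKM in 1 PBS library, 3 OMV-SIRP and 0 OMV-SIRP-G libraries, so it passed the filter through the group where it was high.

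In B16 TAM all 10 genes were tested. OMV-SIRP against PBS called 1 higher and 1 lower, against 0.885% and 0.566% of all genes. OMV-SIRP-G against PBS called 5 higher, against 7.83%, and OMV-SIRP-G against OMV-SIRP 5 higher, against 6.35%. In both of these 0 were lower by limma, also at an unadjusted p under 0.05, and 0 by voom, against 7.28% and 5.62%. The median change was 0.14, 0.82 and 0.82, beside -0.01, -0.03 and -0.02 for all genes. Marco reached 1 FPKM in 1 of 3 PBS libraries and in all 6 treated ones, so it passed the filter through the treated groups and had to differ from PBS; it is the 1 higher call under OMV-SIRP. In such bulk samples fewer cells of a type and less RNA per cell cannot be told apart.

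In MC38 TAM 8 genes were tested; Marco and Cd163 did not reach the level required. Under OMV-SIRP 4 were called higher, against 7.40%, and 0 lower by limma at either p and by voom, against 3.49%. Under OMV-SIRP-G 5 were higher and 1 lower, against 13.1% and 6.86%. Between the treatments 0 were higher, against 0.149%, and 1 was lower, against 0.234%; 1 was higher at an unadjusted p under 0.05 and 0 by voom, and the lower call was lost without OMV-SIRP 1 or without any OMV-SIRP-G library. Medians were 1.84, 2.29 and -0.17, beside 0.03, 0.07 and 0.05 for all genes. Mertk, with no read under PBS, passed the filter through both treated groups and had to differ from PBS. Timd4 reached 1 FPKM in 1 PBS, 0 OMV-SIRP and 3 OMV-SIRP-G libraries, so it passed through the group where it was high; OMV-SIRP and PBS overlapped (0.14, limma adjusted p = 0.868).

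**Figure D2:**
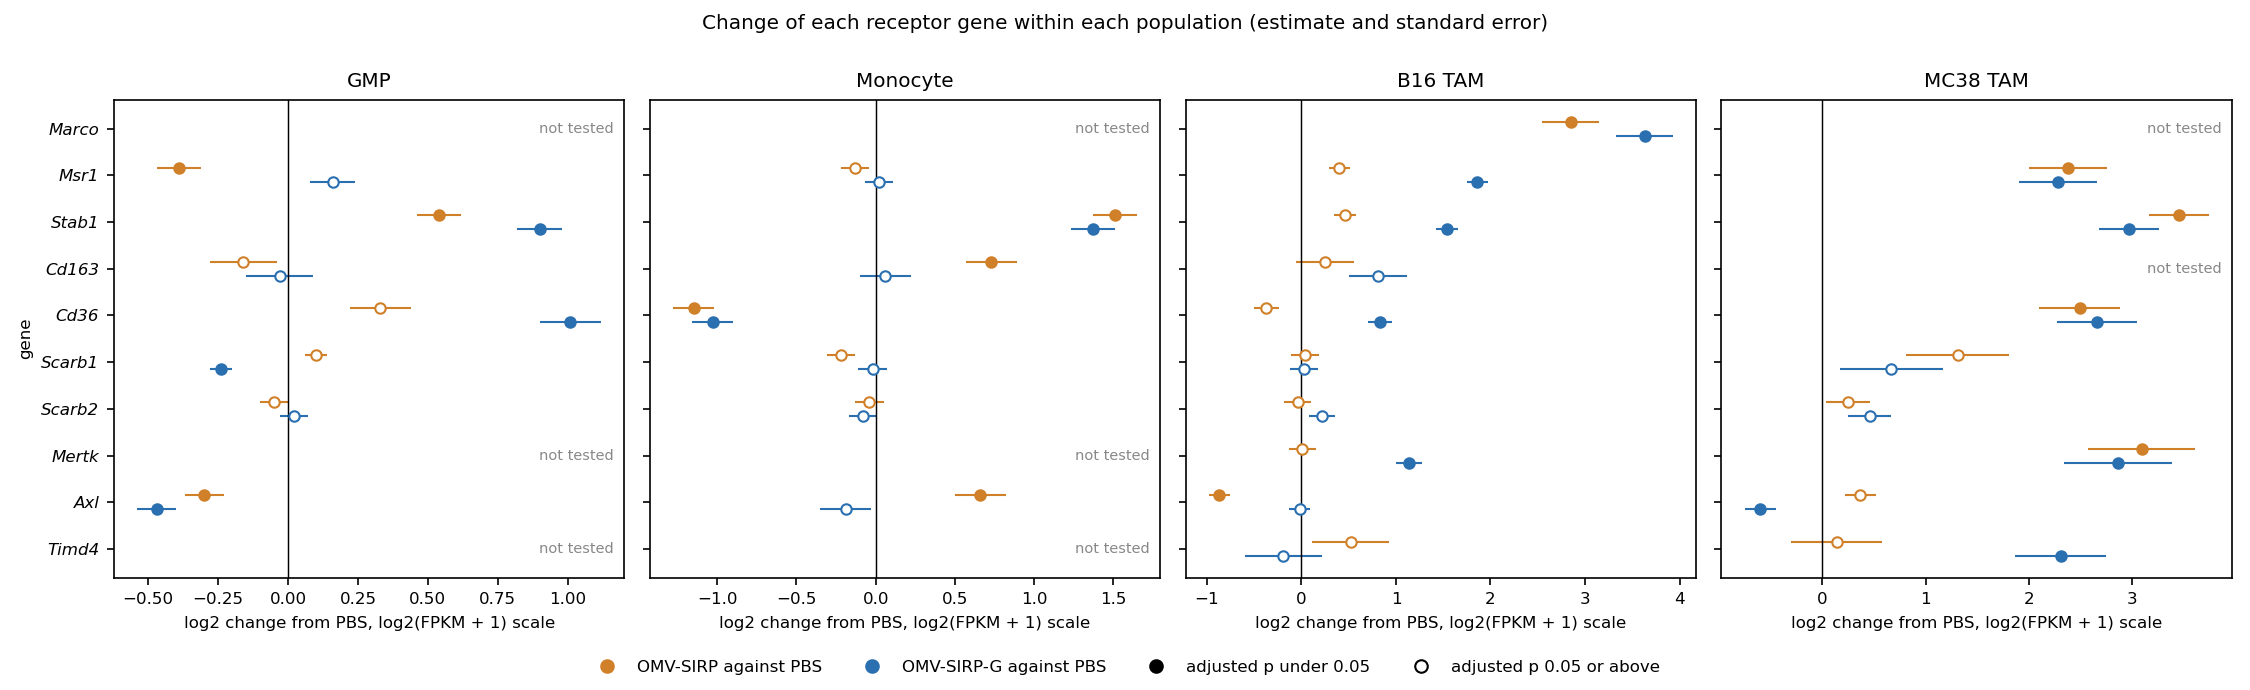
Log2 change from PBS of each tested receptor gene in each population (horizontal axis, log2(FPKM + 1) scale, with a separate range per panel). Points are limma estimates, bars are standard errors and filled points have an adjusted p under 0.05. Under OMV-SIRP-G, 5 of 10 genes are higher in B16 TAM and 5 of 8 in MC38 TAM, against 7.83% and 13.1% of all genes tested. These counts include Marco in B16 TAM and Mertk and Timd4 in MC38 TAM, which passed the filter through groups where they were high. Cd36 lies on opposite sides of 0 in GMP (1.01) and monocytes (-1.03) under OMV-SIRP-G.

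Macrophage markers moved in the tumours beside these counts. In B16 TAM their sum was 2965 to 3226 FPKM under PBS, 3636 to 4846 under OMV-SIRP and 8139 to 8443 under OMV-SIRP-G. Under OMV-SIRP 2 of the 8 were called higher, Itgam and Lyz2, and the median change was 0.15; under OMV-SIRP-G all 8 were, with a median of 1.39. Markers of the melanoma cells fell under OMV-SIRP-G, with 6 of 6 lower and a sum of 786 to 891 FPKM against 2830 to 3079 under PBS, and stood at 2311 to 2565 under OMV-SIRP. Erythroid markers were 16535 to 17906 FPKM under PBS, 2220 to 3101 under OMV-SIRP and 3233 to 3267 under OMV-SIRP-G. The share of reads from mitochondrial genes was 15.2 to 19.7% under PBS, 18.5 to 21.3% under OMV-SIRP and 13.0 to 14.2% under OMV-SIRP-G. T and NK cell markers summed to 86.1 to 108 FPKM under PBS, 34.9 to 44.3 under OMV-SIRP and 34.5 to 37.4 under OMV-SIRP-G, with 5 and 7 of 7 lower than PBS. Dendritic cell markers, led by Ccr7, were at 119 to 124, 159 to 179 and 69.5 to 69.8 FPKM, with 5 of 7 lower under OMV-SIRP-G than OMV-SIRP. The part of these shifts in the receptor changes was not tested.

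MC38 TAM showed a wider gap. The macrophage sum was 243 to 477 FPKM under PBS, 1895 to 5245 under OMV-SIRP and 3004 to 3171 under OMV-SIRP-G, with 7 of 8 and 8 of 8 markers higher and medians of 3.19 and 3.34. The highest marker under PBS was Cd14, at a mean of 173 FPKM, and it was the marker not called under OMV-SIRP. Neutrophil markers stood at 248 to 549 FPKM under PBS, 30.5 to 156 under OMV-SIRP and 32.0 to 47.8 under OMV-SIRP-G, with 3 and 2 of the 5 tested called lower. Ly6g, their defining marker, was at 0 in every MC38 library. T and NK cell markers summed to 38.6 to 75.1, 68.0 to 99.8 and 122 to 136 FPKM under PBS, OMV-SIRP and OMV-SIRP-G, with 1 and 4 of 7 higher than PBS. Dendritic cell markers, led by Ccr7, were at 137 to 207, 41.5 to 474 and 672 to 747 FPKM, with 0 and 1 of the 4 tested higher. Fibroblast markers stood at 18.8 to 29.2, 39.1 to 98.9 and 20.1 to 21.3 FPKM; of the 6 tested, 3 were higher under OMV-SIRP, and 1 was higher and 1 lower under OMV-SIRP-G. Erythroid markers summed to 2320 to 6836, 3586 to 10678 and 2711 to 2964 FPKM, above the macrophage sum under PBS. Markers of epithelial tumour cells summed to 1.73 to 14.4, 13.4 to 29.6 and 31.8 to 33.2 FPKM. Mitochondrial reads made up 2.98 to 5.07%, 15.2 to 21.5% and 6.06 to 6.46%. Between the treatments the macrophage sums overlapped, and the median change was -0.14. Again the part of these shifts was not tested.

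Among the class A receptors, Marco, which binds bacterial and particulate surfaces, showed the largest fold in B16 TAM among the 10 genes. Its level was 1.53, 0.832 and 0.367 FPKM under PBS, 7.53, 14.2 and 17.3 under OMV-SIRP, and 19.3, 21.1 and 26.0 under OMV-SIRP-G. The groups did not overlap. The mean rose from 0.911 to 13 FPKM under OMV-SIRP (14.3-fold; log2 change 2.85, SE 0.30, limma adjusted p = 0.00117) and to 22.1 FPKM under OMV-SIRP-G (24.3-fold; 3.63, SE 0.30, adjusted p = 5.45e-05). Between the treatments the difference of 0.79 was not called (adjusted p = 0.133; voom 0.0444). Both calls against PBS held under every alternative run, also with no filter (adjusted p = 0.00587 and 0.000349).

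Marco changed more than the macrophage markers of the same libraries. Set against the mean of the 8 markers, on the log2(FPKM + 1) scale, it was at -6.06 ± 0.44 under PBS, -3.52 ± 0.54 under OMV-SIRP and -3.90 ± 0.20 under OMV-SIRP-G (SD, n = 3 each). The PBS libraries, at -6.48 to -5.60, did not overlap the others, which lay at -4.14 to -3.20 and -4.08 to -3.68. Elsewhere Marco was scarce. In GMP it had 0, 8 and 3 reads under PBS, 12, 5 and 20 under OMV-SIRP and 17, 19 and 10 under OMV-SIRP-G, where the OMV-SIRP group overlapped both others. In monocytes it had 4, 4 and 2 reads under PBS, 13, 21 and 31 under OMV-SIRP and 29, 26 and 22 under OMV-SIRP-G, and both treated groups lay above PBS without overlap. In MC38 TAM it had 35, 0 and 0 reads under PBS, 6, 0 and 13 under OMV-SIRP and 36, 34 and 3 under OMV-SIRP-G, so all 3 groups overlapped. It passed the filter in none of these 3 populations. With no filter, limma called it among them only in monocytes under OMV-SIRP-G against PBS (adjusted p = 0.041).

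Msr1, which takes up modified low-density lipoprotein, rose in both tumours. In B16 TAM it was at 8.63, 9.38 and 9.58 FPKM under PBS, 12.7, 12.0 and 12.7 under OMV-SIRP and 35.8, 36.4 and 35.6 under OMV-SIRP-G. These groups were separate. The mean rose 3.91-fold under OMV-SIRP-G against PBS (log2 change 1.86, SE 0.11, limma adjusted p = 8.85e-06) and 2.88-fold against OMV-SIRP (1.46, SE 0.11, adjusted p = 9.22e-05). The 0.40 difference of OMV-SIRP from PBS was not called (adjusted p = 0.182). Against the macrophage marker mean Msr1 went from -3.60 ± 0.08 under PBS to -3.22 ± 0.03 under OMV-SIRP-G, without overlap.

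In MC38 TAM, Msr1 was at 5.74, 7.18 and 8.90 FPKM under PBS, 46.0, 73.7 and 21.1 under OMV-SIRP and 38.4, 39.7 and 37.6 under OMV-SIRP-G. Each treated library exceeded each PBS library. It rose under OMV-SIRP (log2 change 2.38, SE 0.38, limma adjusted p = 0.00638) and OMV-SIRP-G (2.28, SE 0.38, adjusted p = 0.00432), and the treatments overlapped. Relative to the marker mean it was lower in the treated groups, at -1.70 ± 0.24 and -1.65 ± 0.04, than under PBS at -0.77 ± 0.20. In GMP it fell under OMV-SIRP, from 2.08, 2.56 and 2.59 FPKM to 1.61, 1.46 and 1.72 (log2 change -0.39, SE 0.08, adjusted p = 0.011), and was higher under OMV-SIRP-G than OMV-SIRP, at 3.01, 2.77 and 2.67 FPKM (0.56, SE 0.08, adjusted p = 0.00227). In monocytes all libraries lay between 23.0 and 27.8 FPKM and no comparison was called.

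Stab1, a receptor for acetylated lipoprotein and extracellular matrix fragments, was called higher than PBS in 7 of 8 comparisons, 2 of them in GMP, where it passed the filter through the treated groups. In B16 TAM it was at 62.5, 73.1 and 71.7 FPKM under PBS, 98.8, 108 and 80.5 under OMV-SIRP, and 209, 205 and 191 under OMV-SIRP-G. Under OMV-SIRP-G it was 2.92-fold higher than PBS (log2 change 1.54, SE 0.12, limma adjusted p = 4.32e-05) and 2.11-fold higher than OMV-SIRP (1.08, SE 0.12, adjusted p = 0.000505). The 0.46 difference of OMV-SIRP from PBS was not called (adjusted p = 0.152), although the groups did not overlap; it was with voom (0.0211) and without OMV-SIRP 3 (0.025). Against the macrophage marker mean Stab1 stood at -0.82 ± 0.12, -0.67 ± 0.35 and -0.76 ± 0.08, and all 3 groups overlapped.

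In MC38 TAM, Stab1 was at 1.78, 2.08 and 4.24 FPKM under PBS, 45.5, 45.7 and 25.6 under OMV-SIRP and 27.2, 26.1 and 27.3 under OMV-SIRP-G. The rise was 14.4-fold (log2 change 3.45, SE 0.29, limma adjusted p = 0.000423) and 9.96-fold (2.97, SE 0.29, adjusted p = 0.000543). The treatments overlapped and did not differ by the test (-0.47, adjusted p = 0.607). Against the marker mean it was at -1.97 ± 0.14 under PBS, -1.84 ± 0.26 under OMV-SIRP and -2.16 ± 0.07 under OMV-SIRP-G, and each treated group overlapped PBS. In both tumours, then, Stab1 moved by about as much as the marker mean, which was 6.95, 7.26 and 8.42 in the B16 groups and 3.80, 7.11 and 6.96 in the MC38 groups.

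The bone marrow populations also had more Stab1 after treatment. In monocytes it rose from 2.70, 1.84 and 3.08 FPKM under PBS to 9.03, 8.77 and 9.10 under OMV-SIRP (log2 change 1.51, SE 0.14, limma adjusted p = 0.000752) and 8.08, 8.60 and 7.46 under OMV-SIRP-G (1.37, SE 0.14, adjusted p = 0.00106). Both held under every alternative. In GMP it rose from 0.926, 0.725 and 0.797 FPKM to 1.56, 1.61 and 1.75 under OMV-SIRP (0.54, SE 0.08, adjusted p = 0.00227) and 2.27, 2.61 and 2.26 under OMV-SIRP-G (0.90, SE 0.08, adjusted p = 0.000148). With no filter the calls against PBS stood (0.00488 and 0.000499). OMV-SIRP-G exceeded OMV-SIRP there by 0.36 (SE 0.08, adjusted p = 0.021), which did not pass when OMV-SIRP 1 (0.0666) or 2 (0.0714) was left out, nor when OMV-SIRP-G 1 (0.0509) or 2 (0.0892) was. Endothelial markers, whose cells can carry Stab1, summed to 23.1 to 24.2 FPKM in GMP under PBS, 21.9 to 23.6 under OMV-SIRP and 25.3 to 27.8 under OMV-SIRP-G. Pecam1 made up most of this sum, and Cdh5, the defining endothelial cadherin, was at most 0.0991 FPKM in all bone marrow libraries. Their part in the Stab1 change was not tested.

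Cd163, the haemoglobin-haptoglobin receptor, was low throughout. In monocytes it was at 0.926, 0.391 and 1.05 FPKM under PBS, 2.07, 1.82 and 1.91 under OMV-SIRP and 0.808, 0.918 and 0.791 under OMV-SIRP-G. It rose under OMV-SIRP (log2 change 0.73, SE 0.16, limma adjusted p = 0.0273), and the OMV-SIRP group overlapped neither other group. That call was lost with a pseudocount of 0.1 (0.0501), with the compared groups alone (0.108), without PBS 1 (0.0506) and without any OMV-SIRP library (up to 0.111). The -0.67 between the treatments was not called (adjusted p = 0.0716). In GMP all 9 libraries lay between 0.731 and 1.32 FPKM with no call. Under OMV-SIRP-G in B16 TAM Cd163 was at 3.04, 2.17 and 2.10 FPKM, above 0.866, 1.04 and 0.941 under PBS, with no call (0.81, SE 0.31, adjusted p = 0.115). In MC38 TAM it had 0 reads in the 3 PBS libraries. Reads were 96, 476 and 53 under OMV-SIRP and 35, 5 and 20 under OMV-SIRP-G. Cd163 did not pass the filter there, and with no filter OMV-SIRP against PBS was not called (limma adjusted p = 0.196). The OMV-SIRP mean was at least 91.8-fold higher than a floor of 3 reads per PBS library, and at least 31.6-fold higher without OMV-SIRP 2.

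Of the class B receptors, Cd36 moves long-chain fatty acids and oxidised lipoprotein into macrophages, platelets and fat cells. It went in opposite directions in the bone marrow populations. In monocytes it was at 6.93, 5.42 and 7.07 FPKM under PBS, 2.42, 2.66 and 2.03 under OMV-SIRP and 2.59, 3.02 and 2.33 under OMV-SIRP-G. It fell by 1.15 on the log2 scale under OMV-SIRP (SE 0.13, limma adjusted p = 0.00224) and by 1.03 under OMV-SIRP-G (SE 0.13, adjusted p = 0.004), and the treatments overlapped. In GMP it was at 1.05, 1.18 and 0.800 FPKM under PBS, 1.63, 1.58 and 1.34 under OMV-SIRP and 2.52, 3.35 and 3.25 under OMV-SIRP-G, 3 groups without overlap. There it rose under OMV-SIRP-G against PBS (1.01, SE 0.11, adjusted p = 0.000383) and against OMV-SIRP (0.68, SE 0.11, adjusted p = 0.00359), while the 0.33 of OMV-SIRP was not called (adjusted p = 0.0716; voom 0.0481). Megakaryocyte and platelet markers summed to 46.9 to 51.5 FPKM in GMP under PBS, 62.7 to 68.2 under OMV-SIRP and 87.5 to 88.2 under OMV-SIRP-G, with 3 of the 5 tested higher under OMV-SIRP-G than under either other treatment. Pf4 was at a mean of 15, 29.1 and 42.5 FPKM and Itga2b, a defining platelet integrin, at 15.9, 14.4 and 20.7 FPKM. Their part in the Cd36 change in GMP was not tested.

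Cd36 rose in both tumours under OMV-SIRP-G. B16 TAM had 32.6, 44.3 and 40.7 FPKM under PBS, 27.8, 33.1 and 28.7 under OMV-SIRP and 66.0, 71.2 and 72.4 under OMV-SIRP-G. PBS and OMV-SIRP overlapped, and OMV-SIRP-G lay above both (log2 change from PBS 0.83, SE 0.13, limma adjusted p = 0.00224; from OMV-SIRP 1.20, SE 0.13, adjusted p = 0.000408). Against the macrophage marker mean it was lower in the treated groups, at -2.31 ± 0.24 and -2.28 ± 0.06, than under PBS at -1.63 ± 0.22. MC38 TAM had 0.900, 3.18 and 3.5 FPKM under PBS, 17.4, 27.3 and 11.1 under OMV-SIRP and 19.9, 18.6 and 21.2 under OMV-SIRP-G. Both treated groups were above PBS (2.49, SE 0.39, adjusted p = 0.00578; 2.66, SE 0.39, adjusted p = 0.00245) and overlapped each other. Pf4, the highest of the megakaryocyte and platelet markers and also made by some macrophages, rose too, from a mean of 146 to 788 FPKM (B16) and from 8.43 to 118 FPKM (MC38) under OMV-SIRP-G. Itga2b was at most 1.80 FPKM in every tumour library. The part of platelet RNA in the Cd36 change was not tested.

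Scarb1 moved in GMP and was called in no other population. In GMP it was at 21.8, 21.8 and 22.6 FPKM under PBS, 24.0, 23.6 and 23.4 under OMV-SIRP and 17.8, 19.4 and 18.6 under OMV-SIRP-G. It fell by 0.24 on the log2 scale under OMV-SIRP-G against PBS (SE 0.04, limma adjusted p = 0.00853) and by 0.33 against OMV-SIRP (SE 0.04, adjusted p = 0.00129), changes of 0.843-fold and 0.785-fold that held under every alternative. Monocytes had 50, 45.6 and 47.3 FPKM under PBS and 39.7, 39.8 and 42.5 under OMV-SIRP, with no call (-0.22, adjusted p = 0.197) except without PBS 2 (0.0289). All 9 B16 TAM libraries lay between 13.9 and 17.7 FPKM, and the 3 groups overlapped. In MC38 TAM PBS 3 was at 0.393 FPKM beside 5.47 and 4.01 in the other PBS libraries, treated libraries were at 4.48 to 10.2 FPKM, and no comparison was called.

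Scarb2 was called by limma in 0 of 12 comparisons, with 0 at an unadjusted p under 0.05, 0 by voom and none under the other alternatives. Its libraries lay between 13.9 and 16.2 FPKM for GMP, 23.4 and 27.2 for monocytes, 12.2 and 18.9 for B16 TAM and 10.5 and 19.1 for MC38 TAM. The largest difference was 0.46 (SE 0.21, limma adjusted p = 0.154) for OMV-SIRP-G against PBS in MC38 TAM, where the groups did not overlap. Its distance to the macrophage marker mean went from -3.05 ± 0.06 to -4.30 ± 0.16 in B16 TAM and from -0.07 ± 0.61 to -2.76 ± 0.07 in MC38 TAM between PBS and OMV-SIRP-G, without overlap.

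Mertk, a receptor kinase that triggers engulfment of dying cells, is widely used as a macrophage marker. In B16 TAM it was at 6.32, 6.08 and 6.96 FPKM under PBS, 6.25, 6.07 and 7.19 under OMV-SIRP and 16, 14.0 and 16.5 under OMV-SIRP-G. The first pair overlapped fully, and OMV-SIRP-G lay above them (log2 change from PBS 1.14, SE 0.14, limma adjusted p = 0.000551; from OMV-SIRP 1.14, SE 0.14, adjusted p = 0.00088). Relative to the macrophage marker mean it was slightly lower under OMV-SIRP-G, at -4.38 ± 0.11, than under PBS, at -4.05 ± 0.10, without overlap.

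In MC38 TAM, Mertk had no read in the 3 PBS libraries. It was at 6.28, 20.1 and 3.03 FPKM under OMV-SIRP and 6.85, 6.28 and 5.74 under OMV-SIRP-G, so every treated library was above every PBS library. Against a floor of 3 reads per PBS library, 0.0383 FPKM, the means of 9.81 and 6.29 FPKM were at least 256-fold and at least 164-fold higher. Without OMV-SIRP 2, the first mean was 4.66 FPKM, at least 122-fold higher. The log2(FPKM + 1) differences were 3.09 (SE 0.52, limma adjusted p = 0.00774) and 2.86 (SE 0.52, adjusted p = 0.00623). The first was lost with the compared groups alone (0.0539). Mertk passed the filter through the treated groups, and with no filter both calls stood (limma adjusted p = 0.017 and 0.0137). In bone marrow it was scarce and not tested: 10, 1 and 2 reads in GMP under PBS, 21, 16 and 22 under OMV-SIRP and 49, 35 and 56 under OMV-SIRP-G, 3 groups without overlap. Monocytes had 13, 3 and 9 reads under PBS, 30, 35 and 39 under OMV-SIRP and 17, 25 and 6 under OMV-SIRP-G. There OMV-SIRP lay above both other groups without overlap. With no filter, limma called Mertk in GMP under OMV-SIRP-G against PBS (adjusted p = 0.00718) and in no other bone marrow comparison.

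Axl, the related kinase that Gas6 activates, was the only receptor gene called lower in any tumour comparison. In B16 TAM it was at 37.1, 36.8 and 38.5 FPKM under PBS, 18.8, 20.8 and 20.5 under OMV-SIRP and 36.4, 35.0 and 39.3 under OMV-SIRP-G. OMV-SIRP lay apart from the other groups, which overlapped. It fell by 0.87 on the log2 scale under OMV-SIRP against PBS (SE 0.11, limma adjusted p = 0.0023) and was 0.85 higher under OMV-SIRP-G than under OMV-SIRP (SE 0.11, adjusted p = 0.000789), with no call between OMV-SIRP-G and PBS (-0.02, adjusted p = 0.916). These calls held under every alternative. Against the macrophage marker mean Axl was lower in both treated groups, at -2.87 ± 0.16 and -3.18 ± 0.07, than under PBS at -1.68 ± 0.05, without overlap.

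In MC38 TAM, Axl was at 98.4, 86.9 and 91.0 FPKM under PBS, 144, 102 and 116 under OMV-SIRP and 59.9, 61.1 and 59.9 under OMV-SIRP-G. The 3 groups did not overlap. It fell by 0.60 under OMV-SIRP-G against PBS (SE 0.15, limma adjusted p = 0.0229) and by 0.97 against OMV-SIRP (SE 0.15, adjusted p = 0.0346), and the 0.37 of OMV-SIRP over PBS was not called (adjusted p = 0.143). The first call was lost without PBS 1 (0.0716) or any OMV-SIRP-G library (up to 0.0834). The second was lost with no filter (0.0679), total-read scaling (0.0906), quantile normalisation (0.0551), the compared groups alone (0.085), and without OMV-SIRP 1 (0.122) or any OMV-SIRP-G library (up to 0.214). Under PBS Axl stood 2.74 ± 0.53 above the macrophage marker mean, and under the treatments at -0.20 ± 0.74 and -1.02 ± 0.05. In MC38 TAM it was the only receptor of the 10 whose PBS libraries all lay above that mean.

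Axl in bone marrow moved with the treatment in a different way in each population. GMP had 5.36, 5.31 and 5.07 FPKM under PBS, 4.40, 3.96 and 3.91 under OMV-SIRP and 3.11, 3.75 and 3.68 under OMV-SIRP-G. It fell by 0.30 under OMV-SIRP (SE 0.07, limma adjusted p = 0.0189) and by 0.47 under OMV-SIRP-G (SE 0.07, adjusted p = 0.00246). The first of these did not pass when PBS 2 (0.0567) was left out, nor when OMV-SIRP 2 (0.0698) or 3 (0.0701) was. Monocytes had 10.3, 7.05 and 9.88 FPKM under PBS, 15.5, 12.6 and 16.1 under OMV-SIRP and 7.63, 8.71 and 6.89 under OMV-SIRP-G. OMV-SIRP was above PBS (0.66, SE 0.16, adjusted p = 0.0428) and OMV-SIRP-G below OMV-SIRP (-0.85, SE 0.16, adjusted p = 0.0351). The monocyte calls were lost without any OMV-SIRP library (up to 0.166 and 0.16) and with no filter (0.09 and 0.0839); the former also with the compared groups alone (0.132), without PBS 1 (0.0546) and without PBS 3 (0.067), the latter also with total-read scaling (0.0548) and without any OMV-SIRP-G library (up to 0.159).

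Timd4, a direct phosphatidylserine receptor of resident macrophages, was seen mainly in the tumours. MC38 TAM had 1.34, 0 and 0 FPKM under PBS, 0.682, 0 and 0.850 under OMV-SIRP and 5.05, 5.31 and 6.42 under OMV-SIRP-G. The OMV-SIRP-G libraries lay above all others (log2 change from PBS 2.31, SE 0.44, limma adjusted p = 0.00747). Timd4 passed the filter through that group, and with no filter the call against PBS stood (limma adjusted p = 0.0176). The 2.17 from OMV-SIRP was not called (adjusted p = 0.0925). That difference was called under quantile normalisation (0.0312) and without PBS 3 and OMV-SIRP 2 (0.0408). B16 TAM had 0.170, 1.84 and 1.3 FPKM under PBS, 1.58, 2.65 and 1.39 under OMV-SIRP and 0.121, 0.833 and 1.49 under OMV-SIRP-G, overlapping groups with no call. GMP had reads only under OMV-SIRP-G, 3, 3 and 5 of them, and monocytes at most 4 in a library. With no filter, limma called these few GMP reads against PBS (adjusted p = 0.0156) and OMV-SIRP (adjusted p = 0.0162).

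**Figure D3:**
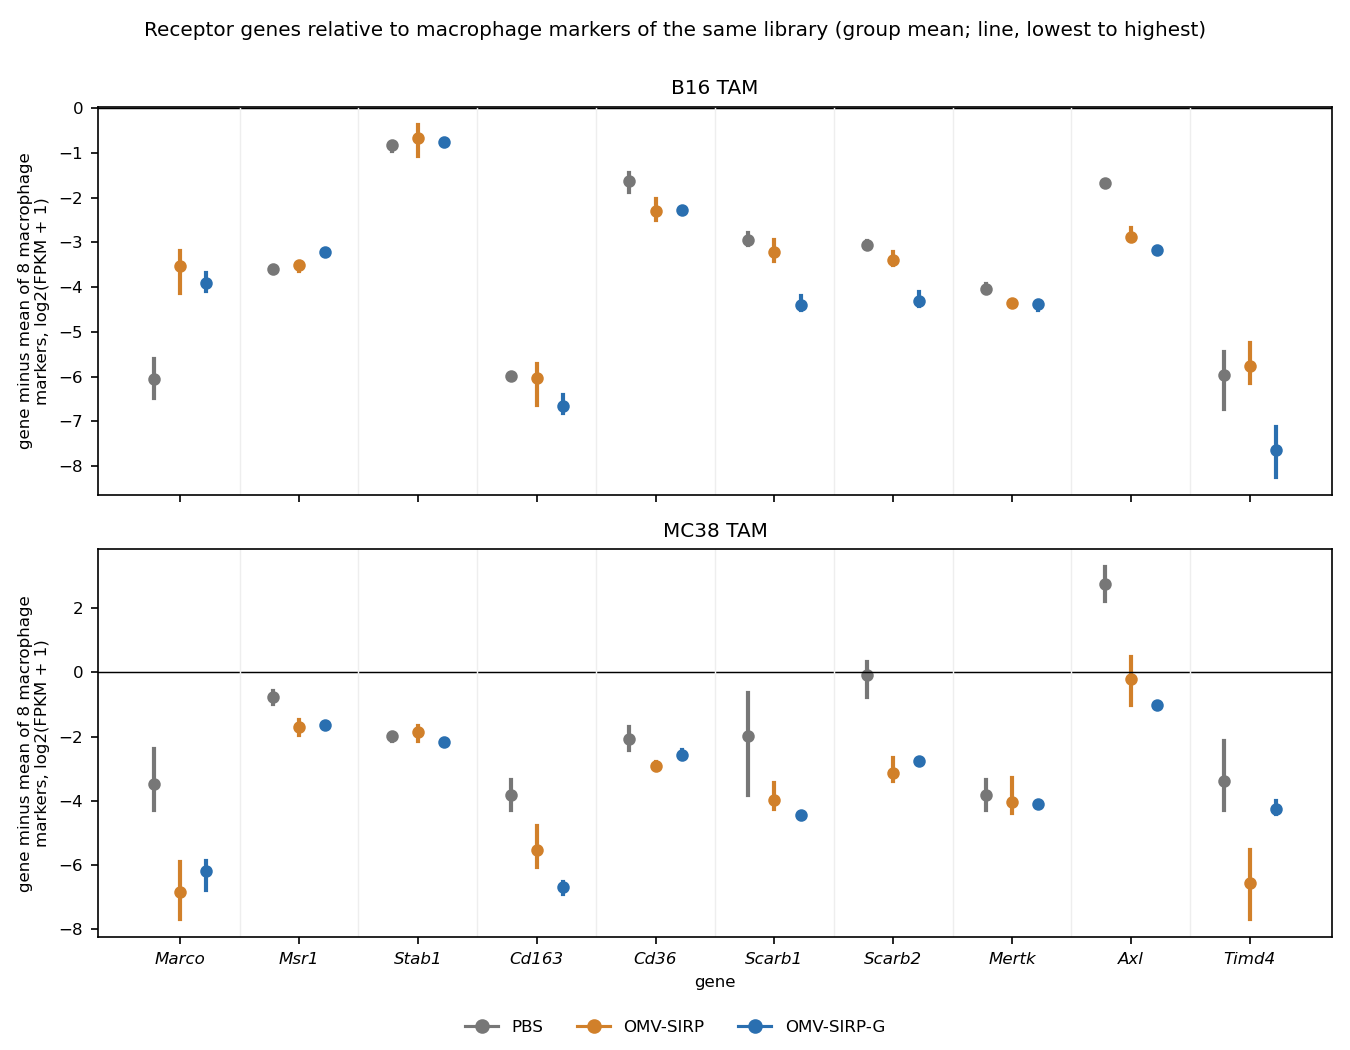
Each receptor gene minus the mean of 8 macrophage markers of the same library (vertical axis, log2(FPKM + 1) units) in B16 and MC38 TAM. Points are group means and lines run from the lowest to the highest of 3 libraries; a gene that moves with the markers keeps its height. Stab1 stays at -0.82 to -0.67 in the B16 panel and -2.16 to -1.84 in the MC38 panel, Marco climbs from -6.06 to -3.52 and -3.90 in B16 TAM, and Axl falls from 2.74 to -0.20 and -1.02 in MC38 TAM.

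The bone marrow libraries carried shifts of their own. In GMP the macrophage markers summed to 5261 to 6487 FPKM under PBS, 8441 to 8747 under OMV-SIRP and 7223 to 7661 under OMV-SIRP-G. In GMP all 8 neutrophil markers were called higher under OMV-SIRP and 5 under OMV-SIRP-G, with sums of 21730 to 31601 FPKM under PBS, 44680 to 47556 under OMV-SIRP and 28057 to 29909 under OMV-SIRP-G. All 4 erythroid markers tested were lower in both treated GMP groups, from 39.8 to 56.6 FPKM to 5.10 to 6.32 and 5.21 to 6.46 FPKM. In monocytes erythroid markers went from 138 to 426 FPKM to 8.51 to 9.61 and 17.1 to 21.3 FPKM. Progenitor markers in monocytes were at 986 to 2095 FPKM under PBS, 577 to 657 under OMV-SIRP and 407 to 481 under OMV-SIRP-G. Of the macrophage list in monocytes, 1 of 7 tested was called, lower, in each treated group. The part of these shifts in the receptor changes was not tested.

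Other genes of the pathway were taken from 8 lists of 81 genes in all: bridging molecules, other scavenger receptors, other receptors for apoptotic cells, engulfment signalling, lipid handling, lysosomal digestion, heme handling, and regulators and sheddases. In B16 TAM 72 were tested. Under OMV-SIRP 2 rose, Hmox1, which degrades heme, and Mrc1, the mannose receptor, and 0 fell by limma (2 at an unadjusted p under 0.05; 0 by voom), against 0.885% and 0.566% of all genes. Hmox1 went from 316 to 472 FPKM (log2 change 0.57, limma adjusted p = 0.017) and Mrc1 from 26.6 to 43.5 FPKM (0.70, adjusted p = 0.0293); neither held when PBS 1, 2 or 3 was left out. Under OMV-SIRP-G 40 rose and 3 fell against PBS, with a median of 0.58, and 40 rose and 3 fell against OMV-SIRP, with a median of 0.55. Of all genes 7.83% rose and 7.28% fell against PBS, and 6.35% and 5.62% against OMV-SIRP, with medians of -0.03 and -0.02. Of the lysosomal digestion genes 11 of 12 were higher than PBS, among them the cathepsin Ctsl, from 46.6 to 142 FPKM (1.58, adjusted p = 3.93e-05). Mrc1 rose from 26.6 to 127 FPKM (2.23, adjusted p = 7.77e-06), Hmox1 from 316 to 878 FPKM (1.47, adjusted p = 1.66e-05) and Maf, a transcription factor of macrophages, from 10.8 to 34.5 FPKM (1.60, adjusted p = 6.01e-05). Against OMV-SIRP, Mrc1 was 1.53 higher (adjusted p = 0.000147) and Maf 1.66 higher (adjusted p = 9.41e-05), and the cathepsin Ctsb went from 888 to 1872 FPKM (1.08, adjusted p = 0.000242).

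In MC38 TAM 74 pathway genes were tested. Under OMV-SIRP 34 rose, with a median of 0.85, and 0 fell by limma (2 at an unadjusted p under 0.05; 1 by voom). Under OMV-SIRP-G 38 rose and 2 fell, with a median of 1.13. Of all genes 7.40% rose and 3.49% fell under OMV-SIRP, and 13.1% and 6.86% under OMV-SIRP-G, with medians of 0.03 and 0.07. Bridging molecules had medians of 4.08 and 2.08, with 5 of 7 and 6 of 7 higher. C1qa, a complement subunit that coats dying cells and that the macrophage list also holds, went from 9.52 FPKM to 451 (log2 change 5.61, limma adjusted p = 0.000149) and 297 (5.01, adjusted p = 0.000143), and C1qc from 6.54 to 198 (4.81, adjusted p = 8.74e-05) and 118 (4.07, adjusted p = 0.00014). Mrc1 went from 0.553 FPKM to 53.3 (5.11, adjusted p = 0.000183) and 39.7 (4.77, adjusted p = 0.000143); with 1 PBS library at 1 FPKM or more, it passed the filter through the treated groups. The fatty acid carrier Fabp5 went from 5.69 FPKM to 27.6 (2.10, adjusted p = 0.000423) and 49.0 (2.91, adjusted p = 0.000113). Between the treatments 1 rose and 1 fell, both bridging molecules, against 0.149% and 0.234% of all genes. Gas6, the ligand of Axl, fell from 17.0 to 2.0 FPKM (-2.60, adjusted p = 0.0199), and Mfge8, which links phosphatidylserine to integrins, rose from 19.7 to 78.9 FPKM (2.06, adjusted p = 0.0427). Neither held without OMV-SIRP 1 or without any OMV-SIRP-G library (up to 0.12 and 0.214).

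In GMP 63 pathway genes were tested. Under OMV-SIRP 15 rose and 11 fell, with a median of 0.02; 16 in all were called with the compared groups alone, and 15 to 17 without PBS 2 or any OMV-SIRP library. Under OMV-SIRP-G 19 rose and 1 fell against PBS, with a median of 0.12, and 18 rose and 4 fell against OMV-SIRP. The shares of all genes were 10.6% and 7.52%, 6.76% and 5.22%, and 6.70% and 8.12% in these comparisons. Fabp5 rose in steps, from 2.97 FPKM under PBS to 8.36 under OMV-SIRP (log2 change 1.24, limma adjusted p = 4.71e-06) and 18.6 under OMV-SIRP-G (2.30, adjusted p = 1.12e-07; 1.07 over OMV-SIRP, adjusted p = 3.33e-05). Lrp1, a large endocytic receptor, fell from 15.7 to 10.7 FPKM under OMV-SIRP (-0.51, adjusted p = 0.00064) and was at 18.6 FPKM under OMV-SIRP-G (0.74 over OMV-SIRP, adjusted p = 0.000156). Hmox1 and Ucp2, a mitochondrial uncoupling protein, also rose under OMV-SIRP, from 61.7 to 84.4 FPKM (0.45, adjusted p = 0.000711) and from 65.1 to 89.8 FPKM (0.46, adjusted p = 0.000738). Cd68 rose from 32.6 to 81.8 FPKM (1.31, adjusted p = 5.2e-06) and Apoe from 78.9 to 145 FPKM (0.88, adjusted p = 9.47e-05) under OMV-SIRP-G; Cd68 is also in the macrophage list. The ferritin chain Fth1 rose from 274 to 444 FPKM (0.69, adjusted p = 0.000133). The regulator Klf4 was higher under OMV-SIRP-G than OMV-SIRP, at 10.3 against 4.58 FPKM (1.01, adjusted p = 0.000182).

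Monocytes called few of the 67 pathway genes tested, and the counts moved with single libraries. Under OMV-SIRP 9 rose and 3 fell, while 30 in all were called without PBS 2 and 5 or 6 without PBS 1 or any OMV-SIRP library. Under OMV-SIRP-G 3 rose and 1 fell, while 21 were called without PBS 2 and 2 without OMV-SIRP-G 1 or 3. Between the treatments 2 were higher and 3 lower under OMV-SIRP-G, and 2 or 3 in all were called without any library of either group. Of all genes 3.07% rose and 5.46% fell under OMV-SIRP, so the 3 that fell are near that background, 1.53% and 2.14% under OMV-SIRP-G, and 1.59% and 0.848% between the treatments. Mrc1 rose under OMV-SIRP from 0.898 to 5.19 FPKM (log2 change 1.72, limma adjusted p = 0.000814) and was at 0.532 FPKM under OMV-SIRP-G (-2.01 from OMV-SIRP, adjusted p = 0.00119). C1qc went the same way, from 0.562 to 3.76 FPKM under OMV-SIRP (1.63, adjusted p = 0.0027) and 0.637 under OMV-SIRP-G (-1.53 from OMV-SIRP, adjusted p = 0.00784, up to 0.0583 when OMV-SIRP 2 or 3 or OMV-SIRP-G 1 or 2 was left out). Mrc1 reached 1 FPKM in 2 PBS, 3 OMV-SIRP and 0 OMV-SIRP-G libraries and C1qc in 1, 3 and 0. Mrc1 and C1qc thus both passed the filter through the group where they were high. Hmox1 went the other way, from 2650 FPKM under PBS to 867 under OMV-SIRP (-1.60, adjusted p = 0.00122) and 2463 under OMV-SIRP-G (1.51 over OMV-SIRP, adjusted p = 0.00387). The lipase Lpl rose under OMV-SIRP-G from 19.3 to 36.2 FPKM (0.88, adjusted p = 0.00839) and the iron exporter Slc40a1 from 2.22 to 4.30 FPKM (0.71, adjusted p = 0.00975), calls lost without OMV-SIRP-G 3 and OMV-SIRP-G 1. Pros1 fell from 3.54 to 1.98 FPKM (-0.60, adjusted p = 0.0446), and the heme transporter Slc48a1 was higher under OMV-SIRP-G than under OMV-SIRP (0.80, adjusted p = 0.0142). Pros1 was lost without PBS 1, PBS 3 or any OMV-SIRP-G library (up to 0.164), and Slc48a1 without any library of the compared groups (up to 0.096).

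**Figure D4:**
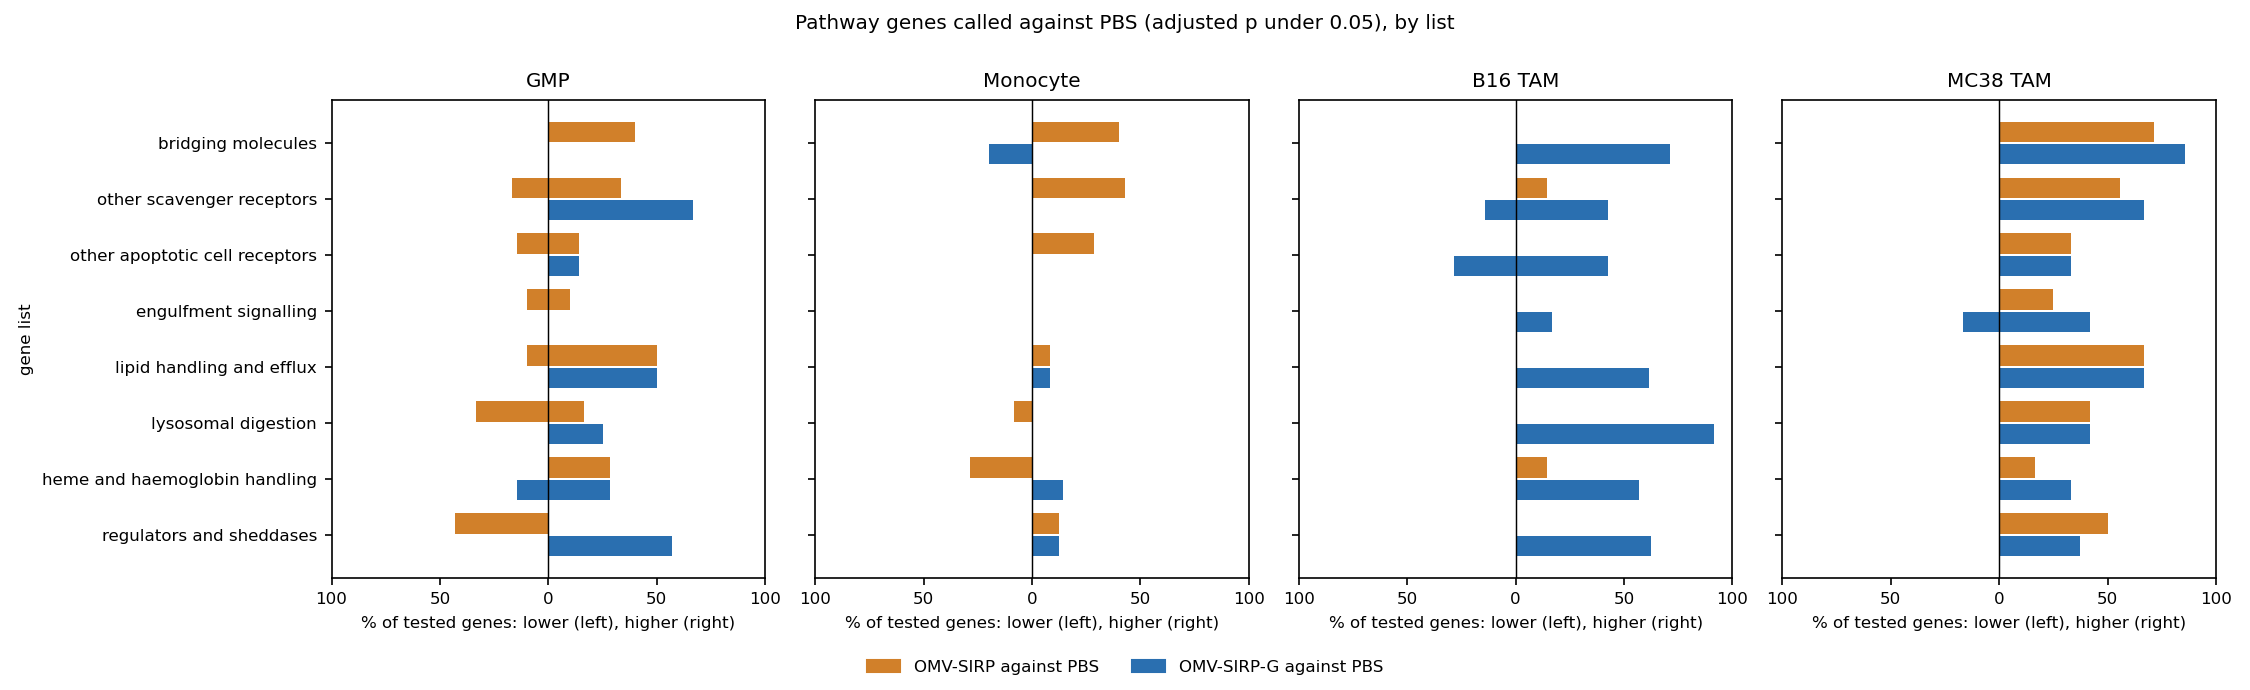
Share of the tested genes of each pathway list that were called against PBS (horizontal axis, percent of tested genes; lower to the left, higher to the right) in each population. Each bar is 1 list under OMV-SIRP or OMV-SIRP-G. Under OMV-SIRP-G 11 of 12 lysosomal genes are higher in B16 TAM, where 2 pathway genes in all are called under OMV-SIRP. In MC38 TAM both treatments show bars to the right in all 8 lists. Of all genes tested, 0.885% and 7.83% were higher in B16 TAM under OMV-SIRP and OMV-SIRP-G. In MC38 TAM these shares were 7.40% and 13.1%.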

How the data were processed

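RNA-seq was made from 36 libraries of mouse bone marrow cells and tumour-associated macrophages; RNA was taken with TRIzol and libraries with a NEBNext mRNA kit, per the labels' protocols. The authors deposited FPKM per gene in 3 tables, of GMP and monocytes, of B16 TAM and of MC38 TAM. HISAT2 2.0.5, StringTie, featureCounts 1.5.0-p3 and GRCm38 are named per the submitters' processing notes; the sources used here give neither their settings nor their roles.

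The tables were scaled separately, and the 4 populations were tested separately. FPKM were put on the log2(FPKM + 1) scale, so fold changes of low genes are understated. Genes with at least 1 FPKM in 3 of 9 libraries of a population were fitted over its 3 groups with limma 3.58.1 (lmFit, eBayes with trend and robust; statmod 1.5.0, R 4.3.3), with Benjamini-Hochberg adjustment over all genes tested and a threshold of 0.05. Reads recovered from FPKM and the deposited gene length were whole for 100% of values within a tolerance of 0.05; voom on them was an alternative added after seeing the files. Other alternatives were a pseudocount of 0.1, no filter, total-read scaling, quantile normalisation, the compared groups alone, a replicate block and each library left out. The fit was tested on simulated data.

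All 10 receptor genes were reported, with up to 4 called pathway genes of lowest adjusted p per comparison, the highest marker of each list and the defining markers. A pathway gene that this rule names is not reported here. The members and the lists were chosen with earlier results of these data known. Reads per library were 13036567 to 19822660, and values of a few reads carry counting error on top of the spread between libraries. Whether counting used strand is not given. Promoters came from RefSeq, GRCm38.p6.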

Additional observations from a re-analysis of the deposited data

Results flagged for a closer look

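In 8 cases all libraries of the compared groups separated one way in a population and the opposite way in its partner. None of these differences between populations was tested, since tests were made within a population only. Cd36 differed from PBS by 0.33 in GMP and -1.15 in monocytes under OMV-SIRP, and by 1.01 and -1.03 under OMV-SIRP-G. Axl under OMV-SIRP was at -0.30 in GMP and 0.66 in monocytes against PBS. Scarb1 was at 0.10 in GMP and -0.22 in monocytes under OMV-SIRP against PBS, and at -0.33 and 0.20 under OMV-SIRP-G against OMV-SIRP. Stab1 was at 0.36 in GMP and -0.14 in monocytes in the latter comparison. In the tumours, Axl was at -0.87 in B16 TAM and 0.37 in MC38 TAM under OMV-SIRP against PBS, and at 0.85 and -0.97 under OMV-SIRP-G against OMV-SIRP. Of these 16 log2 changes, 10 were called by limma. How often all genes, rather than the receptor genes alone, separated in this way was not counted. Whether 8 cases, or 10 calls among them, exceed the background is therefore unknown. Separation was judged on the deposited scaling only. Across the alternatives the limma adjusted p reached 0.989 for the 0.37 of Axl in MC38 TAM. It reached 0.976 for the 0.10 of Scarb1 in GMP.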

How the results depend on the processing

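No receptor change that was called, in the main fit or under an alternative, reversed its sign. Of 1272 log2 changes under the alternatives, 1216 kept their side of the threshold, 45 lost the call and 11 gained it. Sign changes of values that neither fit called were not counted. Replicate numbers did not pair the libraries: same-numbered deviations correlated at -0.370 to 0.250 in monocytes, -0.020 to 0.223 in GMP, 0.0001 to 0.078 in the B16 table and -0.034 to 0.053 in the MC38 table. With a replicate block 92 receptor changes kept their side of the threshold and 4 lost the call: Cd163 (adjusted p = 0.0676) and Axl (0.0913) in monocytes under OMV-SIRP, and Axl between the treatments in monocytes (0.106) and in MC38 TAM (0.111). Receptor genes called went from 4 to 2 with the block in monocytes under OMV-SIRP, and from 1 to 0 between the treatments in monocytes and in MC38 TAM; pathway genes called with the block were 7 in monocytes under OMV-SIRP, 3 between the monocyte treatments, 1 in B16 TAM under OMV-SIRP and 0 between the MC38 treatments.

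Receptor genes called in monocytes under OMV-SIRP were 2 with the compared groups alone and 2 to 5 with a library left out. Between the monocyte treatments they were 0 with no filter, 0 with total-read scaling, 2 with quantile normalisation, 2 with the compared groups alone and 0 with any library left out. Between the MC38 treatments they were 0 with no filter, 0 with total-read scaling, 0 with the compared groups alone, 0 to 1 with a library left out and 2 with PBS 3 and OMV-SIRP 2 both left out, an alternative chosen after seeing the data. Of all genes, 188 were called between the MC38 treatments without OMV-SIRP 3 and 162 without OMV-SIRP 2.

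Pathway genes called with the compared groups alone were 16 in GMP under OMV-SIRP (26 in the main comparison), 4 in monocytes under OMV-SIRP (12), 1 under OMV-SIRP-G (4) and 24 between the treatments (5), 0 in B16 TAM under OMV-SIRP (2), 17 in MC38 TAM under OMV-SIRP (34) and 1 between the MC38 treatments (2). With no filter they were 7 in monocytes and 1 in B16 TAM under OMV-SIRP, and 1 between the MC38 treatments. With quantile normalisation they were 8 in monocytes under OMV-SIRP-G, 11 between the monocyte treatments and 1 in B16 TAM under OMV-SIRP. Between the MC38 treatments they were 0 with a pseudocount of 0.1, 4 with total-read scaling and 7 with both libraries left out. With a library left out they were 15 to 26 in GMP under OMV-SIRP, 5 to 30, 2 to 21 and 2 to 3 in the monocyte comparisons, 0 to 3 in B16 TAM under OMV-SIRP, and 24 to 36 and 0 to 4 in MC38 TAM under OMV-SIRP and between the treatments. The cause of these shifts was not tested. Fits of the compared groups alone or with a library left out also hold fewer libraries.

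Over all alternatives, calls of all genes ranged from 1394 to 2756, 908 to 1908 and 1077 to 2546 in GMP (2232, 1471 and 1821 as reported, in the order OMV-SIRP against PBS, OMV-SIRP-G against PBS and between the treatments). In monocytes they ranged from 240 to 3612, 158 to 1516 and 58 to 2067 (1026, 442 and 293), in B16 TAM from 87 to 202, 1162 to 2143 and 925 to 1667 (182, 1895 and 1502), and in MC38 TAM from 334 to 2332, 1267 to 4704 and 6 to 629 (1534, 2809 and 54). Marco, Mertk and Timd4 were scarce in bone marrow, where libraries held at most 56 reads of each, and such low counts carry counting error.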
